A study of Homo sapiens with 8 samples.

Results

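Among the transcripts that long-read sequencing assembled in human pluripotent stem cells and their early derivatives, 8173 of 98350 (8.31%) lay wholly inside an intron of a reference gene. They were chosen by the class code "i" that the deposited combined assembly gives to each of them, and 8117 of them were listed in the combined count table. The other 56 had no counts and enter no comparison. They belonged to 3159 host genes and 7077 loci, and 6226 loci held 1 such transcript. All libraries came from the H1 embryonic stem cell line, from polyadenylated RNA read on a PacBio Sequel II instrument, with 2 libraries in each of 4 groups. The hPSC group was undifferentiated cells kept in mTeSR1 on Matrigel, and each of the other groups was differentiated for 5 days. Endoderm cells received RPMI medium with WNT3A and Activin A. Mesoderm cells received DMEM/F12 with VEGF, BMP4 and bFGF, and with Activin A in the opening day. Ectoderm cells received KOSR-based medium with the inhibitors A83-01, PNU-74654 and Dorsomorphin. The line is a single one and the labels do not say whether the 2 libraries of a group came from separate cultures, so p-values measure only the spread between libraries, which may be technical. In bulk RNA, fewer cells of a type and less RNA per cell cannot be told apart.

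Introns are removed from a gene's primary transcript by splicing, and most intron RNA is degraded soon afterwards. Stable polyadenylated RNA can still come from within an intron. A host's own transcript can end early at a poly(A) signal inside an intron, an intron can be kept, and an independent gene, often a long noncoding RNA, can be transcribed there on either strand. Small RNAs such as microRNAs and small nucleolar RNAs are commonly processed from introns as well.

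The sequences printed here show 3 kinds of feature that such transcripts met: an annotated promoter near which they began, exact exon borders, and a microRNA hairpin within the span of 1 of them. Of the members, 42 began within 300 nt of a RefSeq transcription start on their own strand, out of 35116 starts. The promoters of NUCKS1 (a nuclear DNA-binding phosphoprotein), IDI1 (an isomerase of isoprenoid synthesis) and the noncoding LOC105371629 are given as the 250 bases before the start, from RefSeq (GRCh38.p14), 5′ to 3′ on the minus strand. Capitals mark each match to GGGCGG or its complement CCGCCC, a box bound by SP1-family factors, and 42.6% of all promoter windows in the table hold at least 1 on either strand.
NUCKS1, chr1:205750183-205750432: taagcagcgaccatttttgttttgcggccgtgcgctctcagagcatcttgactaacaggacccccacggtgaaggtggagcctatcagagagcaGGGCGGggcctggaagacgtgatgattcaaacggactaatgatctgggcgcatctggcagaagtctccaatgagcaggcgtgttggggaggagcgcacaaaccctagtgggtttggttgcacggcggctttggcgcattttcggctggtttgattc
IDI1, chr10:1056705-1056954: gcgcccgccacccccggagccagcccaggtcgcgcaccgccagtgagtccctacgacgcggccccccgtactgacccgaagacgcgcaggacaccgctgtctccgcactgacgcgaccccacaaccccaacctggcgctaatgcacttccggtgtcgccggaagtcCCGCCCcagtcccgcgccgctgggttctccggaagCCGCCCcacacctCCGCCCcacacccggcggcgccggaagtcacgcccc
LOC105371629, chr1:178341342-178341591: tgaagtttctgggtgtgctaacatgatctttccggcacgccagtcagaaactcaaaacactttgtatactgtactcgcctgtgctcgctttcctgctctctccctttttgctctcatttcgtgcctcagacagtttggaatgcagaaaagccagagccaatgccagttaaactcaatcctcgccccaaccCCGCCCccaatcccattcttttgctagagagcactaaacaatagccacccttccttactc
The NUCKS1 window held 1 match, the IDI1 window 3 and the LOC105371629 window 1. A match is a description of the letters and not a binding site. In NUCKS1 the member (chr1:205734793-205749918, 1 exon, 15126 nt) began 264 nt after the gene's start on the host strand. Its counts were 6 and 1 for hPSC, 26 and 26 for ectoderm, 2 and 3 for endoderm, and 11 and 16 for mesoderm. The IDI1 start lies inside WDR37, a WD-repeat protein, on its other strand, and a member there (chr10:1050227-1056709, 6483 nt) began 5 nt before the IDI1 start. It had 7 and 5 counts for ectoderm and at most 1 in any other library. At LOC105371629 a member of 3 exons inside RASAL2, a RAS GTPase-activating protein, began at the annotated start itself. It had 6 and 2 counts for ectoderm, 1 in a mesoderm library and 0 elsewhere.

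Exact intron borders were shown by JARID2, which encodes an accessory subunit of the polycomb repressive complex PRC2. One member there (chr6:15513423-15517160, 3738 nt) covered intron 16 from its first base to its last. The exon sequence on either side, from GENCODE 29 on GRCh38, carries on directly from it.
JARID2 exon 16 end, chr6:15513393-15513422: atctgccagcacctgtgctacctgtccatg
JARID2 exon 17 start, chr6:15517161-15517190: gtggtacaagagaacgaaaacgtcgtgttc
In all, 51 members filled their intron exactly, and 167 began at the first base of their intron. A single member spanned a RefSeq microRNA hairpin: a 2-exon transcript on the host strand of GSE1 (chr16:85206263-85213295, 6933 nt) with MIR12128 (chr16:85207796-85207895, plus strand) between its start and its end. Whether the hairpin lies in an exon of it was not tested. Capitals mark the mature microRNA in the hairpin, and bases 2 to 8, the seed that pairs with targets, in the mature sequence.
MIR12128 hairpin: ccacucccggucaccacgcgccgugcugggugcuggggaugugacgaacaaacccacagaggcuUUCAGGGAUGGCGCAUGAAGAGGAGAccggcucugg
hsa-miR-12128: uUCAGGGAuggcgcaugaagaggaga
The GSE1 member had 0 and 1 counts for hPSC, 1 and 5 for ectoderm, 3 and 0 for endoderm and 0 for both mesoderm libraries, too few for a comparison.

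Most members were long and unspliced. A single exon made up 7533 of them (92.2%), and the 640 spliced ones had 2 exons in 545 cases, 3 in 79 cases and at most 6. Their median length was 5551 nt (interquartile range 3579 to 8158), against 2776 nt for the 32441 transcripts that matched a reference transcript. The strand relation to the host was known for 8045: 7573 ran on the host's strand and 472 (5.87%) on the opposite strand. Opposite-strand members were the shorter, with a median of 3121 nt against 5701 nt. They were also more often spliced. The opposite strand held 4.26% of members with 1 exon, 19.0% of those with 2 exons, and 56 of 81 (69.1%) with 3 or more. How the strand of 1-exon transcripts was assigned is not given in the sources used here. Of the members, 7112 (87.0%) had a protein-coding host in GENCODE 29 and 474 a lincRNA host.

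The introns that held members were long. Of 6841 members whose listed reference transcript was found in GENCODE 29, 6677 lay inside 1 of its introns. That intron had a median length of 54895 nt, against 1610 nt over all 1056427 introns of GENCODE 29 transcripts. It was the first intron for 2316 (34.7%), where choosing introns evenly by number would give 13.0%. A longer intron offers more room for a transcript, and the share was not adjusted for length. Host-strand members sat well within their intron, at a median of 15913 nt from its start and 23978 nt from its end, and covered a median of 10.6% of it. Only 211 of 6237 (3.38%) began within 100 nt of the intron start, and 112 (1.80%) ended within 100 nt of its end. For opposite-strand members the numbers were 3 and 2 of 379.

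**Figure D1:**
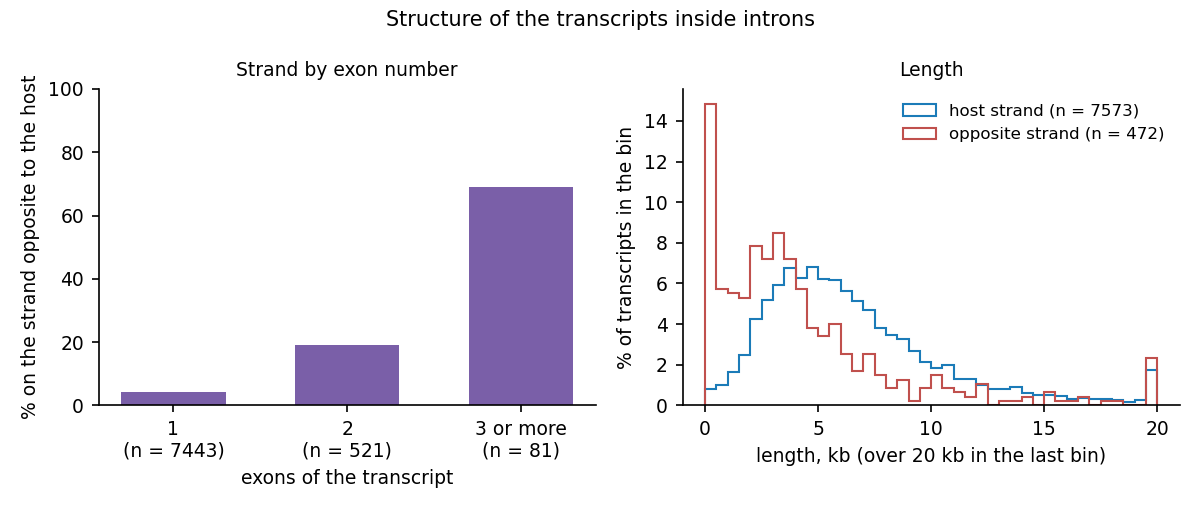
Structure of the intronic transcripts: bars give the percentage on the strand opposite to the host by number of exons, and lines the distribution of length in kb for 7573 host-strand and 472 opposite-strand members, as percent per bin. The opposite strand holds 69.1% of members with 3 exons or more, and its members are the shorter.

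Total counts ranged from 503840 to 586183 in the hPSC, endoderm and mesoderm libraries, and were 1180888 and 967206 in ectoderm. Length differed too: the mean annotated length of the reference-matching transcripts, weighted by their counts, was 2767 to 2941 nt in hPSC, 2700 to 2798 nt in endoderm, 3320 to 3353 nt in mesoderm and 3723 to 3921 nt in ectoderm. Depth and length therefore moved with the groups in the results on the share of counts given next, and values at an equal number of reads and for members of 1000 to 3000 nt stand with those results. The defining markers followed the labels in part. POU5F1 had 372 and 352 counts for hPSC and at most 69 in any layer library, LHX5 was counted in ectoderm alone (235 and 156), CER1 in endoderm alone (974 and 1181), and HAND1, like BMP4 and TBX3, was highest in mesoderm (263 and 274). The other mesoderm markers were not: KDR had 57 and 44 counts for hPSC and 1 and 1 for mesoderm, MIXL1 (14 and 23) and TBXT (4 and 1) were counted mainly in endoderm, and FOXF1 was at 0 for mesoderm. The pluripotency marker LIN28A had 421 and 344 counts for hPSC and 1038 and 1238 for the deeper ectoderm libraries, and SOX2 had 71 and 5 and then 180 and 129. NANOG and TDGF1 were counted in endoderm (92 and 65, 452 and 351) as well as in hPSC. OTX2, fixed for ectoderm, had 181 and 130 counts there and 241 and 238 for endoderm. SOX1 and MESP1, markers fixed for ectoderm and mesoderm, were at 0 in every library.

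Intronic transcripts took a larger share of counts overall in ectoderm and mesoderm than in hPSC, and a smaller one in endoderm. They made up 1.65% and 1.58% of counts for the hPSC libraries, 2.77% and 3.10% for ectoderm, 1.06% and 1.06% for endoderm, and 2.06% and 2.29% for mesoderm. The 4 groups did not overlap. The means were 1.62% ± 0.0481 (SD, n = 2), 2.94% ± 0.237, 1.06% ± 0.000407 and 2.18% ± 0.161, and the exact permutation test of the 4 groups gave p = 0.00952, the smallest that 8 libraries in pairs can give (adjusted p = 0.0171 over 9 measures). Intronic counts per library were 8583 and 8907 for hPSC, 32713 and 30031 for ectoderm, 6206 and 6216 for endoderm, and 10954 and 11542 for mesoderm. The members came from assemblies of the same groups, and 4752 of those listed were held by that of ectoderm alone. The p-values of the shares are therefore not independent of how the members were found. Over members held by 2 or more group assemblies, ectoderm lay below hPSC (means 0.257% and 0.323%).

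The same order held for transcripts on the host's strand. Host-strand members took 1.26% and 1.16% of counts for hPSC, 2.64% and 2.95% for ectoderm, 0.913% and 0.905% for endoderm, and 2.00% and 2.22% for mesoderm (exact permutation p = 0.00952, adjusted p = 0.0171). Ectoderm was thus highest and endoderm lowest, with no overlap. Opposite-strand members ran the other way. They took 0.348% and 0.379% of counts for hPSC, 0.116% and 0.137% for ectoderm, 0.121% and 0.128% for endoderm, and 0.0505% and 0.0643% for mesoderm. Both hPSC libraries lay above every layer library, ectoderm and endoderm overlapped, and mesoderm was lowest (exact permutation p = 0.0286, adjusted p = 0.0286). Without the member with most counts, in HDAC2-AS2, the opposite-strand means were 0.288%, 0.126%, 0.120% and 0.0574% in the same order. Among members of known strand relation, the host's strand accordingly held 78.3% and 75.4% of intronic counts for hPSC, and 95.8% and 95.6% for ectoderm, 88.3% and 87.6% for endoderm, and 97.5% and 97.2% for mesoderm (exact permutation p = 0.00952, adjusted p = 0.0171).

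**Figure D2:**
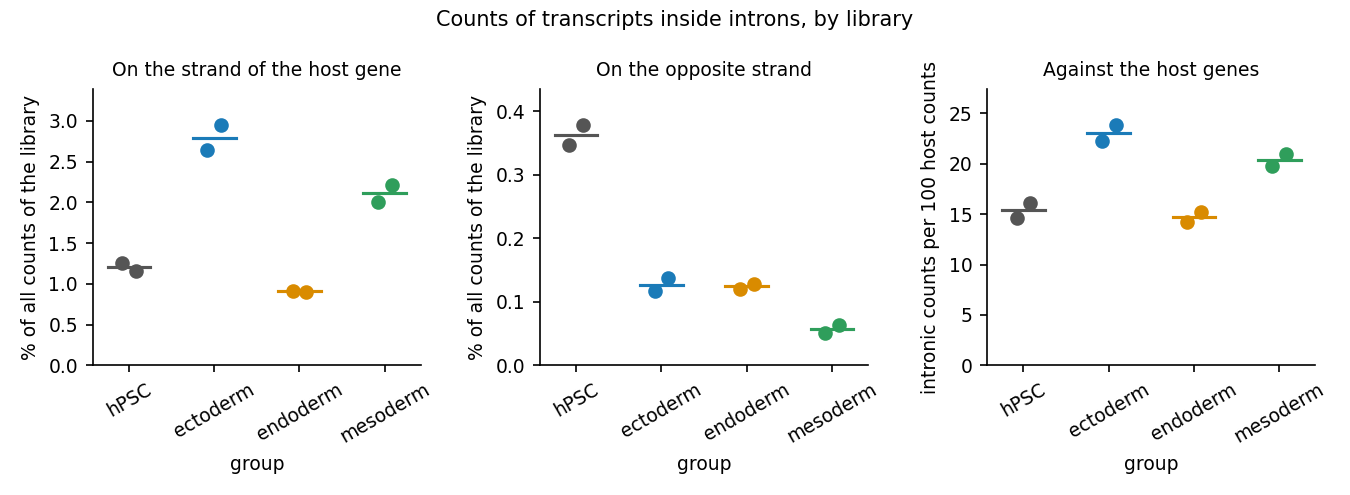
Percent of all counts in intronic transcripts of the host strand and of the opposite strand, and intronic counts per 100 host counts, by group. Points are libraries and lines are means of 2 libraries; ectoderm is highest for the host strand and against the host genes, and hPSC for the opposite strand.

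Within either strand, spliced and 1-exon members had ectoderm and hPSC in the same order. Summed levels are given in CPM, a count scaled by the library total. For the kinds below, the counts of a group's libraries were pooled and scaled by their pooled total. On the host strand, the 7126 members of 1 exon had pooled levels of 11304, 26185, 8488 and 19810 CPM from hPSC through ectoderm and endoderm to mesoderm, and the 447 spliced members had 770, 1604, 603 and 1268. On the opposite strand, the 317 members of 1 exon had 2315, 979, 655 and 454 CPM, and the 155 spliced members had 1323, 278, 591 and 118. By these sums, ectoderm was the highest group for both kinds on the host strand, and hPSC for both kinds on the opposite strand. Taken over both strands, spliced members made up 0.246% and 0.237% of counts for hPSC, 0.181% and 0.200% for ectoderm, 0.135% and 0.125% for endoderm, and 0.126% and 0.152% for mesoderm, with hPSC highest (exact permutation p = 0.0190, adjusted p = 0.0245). A larger part of the spliced counts than of all intronic counts lay on the opposite strand. With members of unknown strand relation left out, the host strand in hPSC held 36.8% of the spliced counts on average and 76.9% of all intronic counts. Of the spliced opposite-strand members, 75 (48.4%) had their highest mean level in hPSC and 5 in mesoderm. Counted singly, the 1-exon opposite-strand members were highest in ectoderm for 137 (43.2%) and in hPSC for 75 (23.7%). The summed level of that kind was nevertheless highest in hPSC. Of the 1-exon host-strand members, 756 (10.6%) were highest in hPSC and 3779 in ectoderm.

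Host counts, below also the spliced counts of a host, are those of its spliced transcripts that match a reference transcript. Other isoforms of the host are left out. Set against these, intronic counts were 14.7 and 16.1 per 100 host counts for hPSC, 22.3 and 23.8 for ectoderm, 14.2 and 15.2 for endoderm, and 19.7 and 21.0 for mesoderm. The hPSC and endoderm libraries overlapped, and ectoderm and mesoderm lay above both (exact permutation p = 0.0190, adjusted p = 0.0245). Over hosts with at least 10 counts in every library the level was lower throughout, at 3.06 and 3.02 per 100 for hPSC, 4.91 and 5.21 for ectoderm, 3.49 and 3.72 for endoderm, and 4.31 and 4.86 for mesoderm. Both endoderm libraries then lay above both of hPSC. Over members held by 2 or more of the 4 assemblies that the study made, 1 for each group, ectoderm lay below hPSC, with means of 18.7, 13.3, 12.8 and 14.6 from hPSC to mesoderm. With each library thinned to 503840 reads, 3790 and 3545 members had a read in hPSC, 5594 and 5809 for ectoderm, 2914 and 2985 for endoderm, and 4698 and 5004 for mesoderm (exact permutation p = 0.00952, adjusted p = 0.0171). The groups did not overlap. Thinning set the number of reads equal and left the difference in length, and the members themselves came from assemblies of libraries of unequal depth. Over members held by 2 or more assemblies the groups lay closer, with 390 and 377 detected for hPSC, 413 and 417 for ectoderm, 310 and 293 for endoderm, and 430 and 446 for mesoderm.

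The members had mostly been found by the ectoderm assembly. The combined assembly was merged from 1 assembly per group, and 7627 members were held by a single group's assembly: 4768 by that of ectoderm, 1487 by that of mesoderm, 762 by that of hPSC and 610 by that of endoderm. Such single-assembly transcripts were 93.3% of the members and 37.3% of the reference-matching transcripts. In ectoderm, 71.3% of intronic counts fell on members held by its own assembly alone, against 23.8% for hPSC, 25.3% for endoderm and 32.5% for mesoderm. For members of 1000 to 3000 nt, chosen to set length aside after seeing the data, the share was 0.187% and 0.171% for hPSC, 0.194% and 0.209% for ectoderm, 0.147% and 0.150% for endoderm, and 0.201% and 0.224% for mesoderm, so ectoderm was again above hPSC by a narrower margin. Over the 546 members held by 2 or more assemblies, the share was 0.307% and 0.339% for hPSC, 0.251% and 0.263% for ectoderm, 0.160% and 0.155% for endoderm, and 0.260% and 0.263% for mesoderm. Ectoderm lay below hPSC over these members as a whole. On the host strand they gave means of 0.171%, 0.237%, 0.116% and 0.249% in that order, so ectoderm was above hPSC there, and on the opposite strand 0.148%, 0.0181%, 0.0396% and 0.0111%, with hPSC again highest. Most of that opposite-strand share in hPSC (0.133% and 0.163%) came from single members in HDAC2-AS2 (612 and 893 CPM) and SEMA3E (341 and 379 CPM). An alternative chosen after seeing the data left out of each library the members held only by its own group's assembly, and gave mean shares of 1.23% for hPSC, 0.843% for ectoderm, 0.792% for endoderm and 1.47% for mesoderm. It removes 4752 listed members from ectoderm and 747 from hPSC, so each group is measured over other members, a drop of ectoderm follows from the removal itself, and the order of the groups cannot be read from it.

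**Figure D3:**
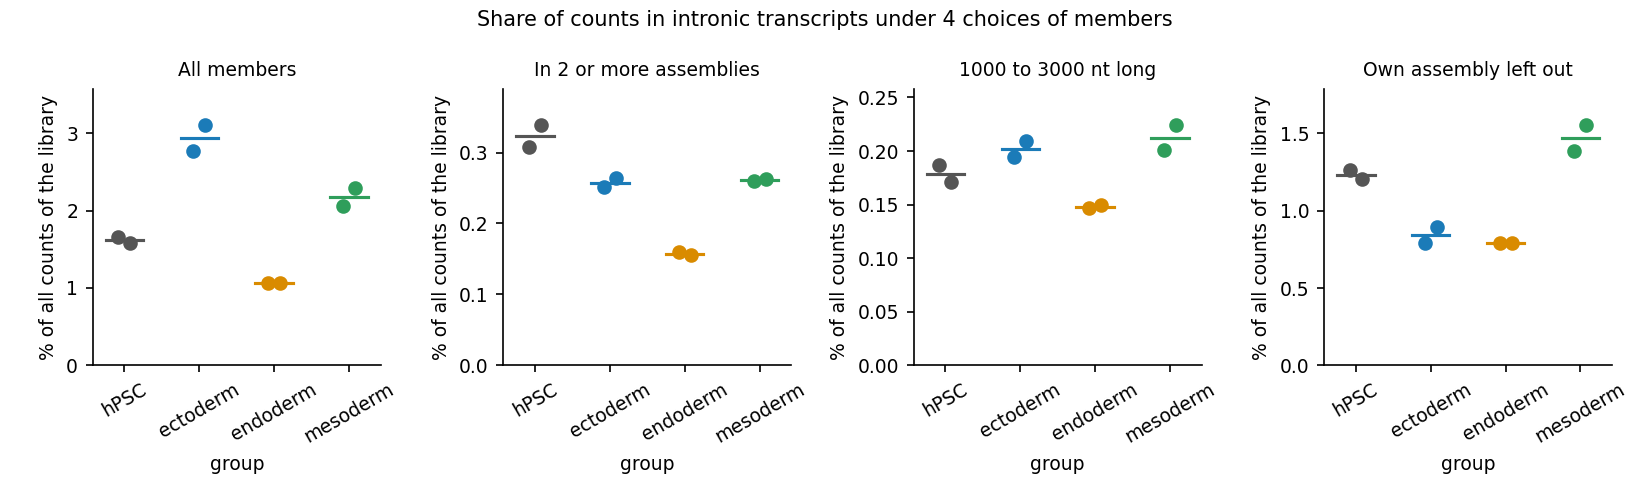
Percent of all counts in intronic transcripts by group, with all members, members in 2 or more group assemblies, members of 1000 to 3000 nt, and members other than those held only by the library's own assembly. Points are libraries and lines are means of 2; ectoderm lies above hPSC with all members and with those of 1000 to 3000 nt, and below hPSC over members in 2 or more assemblies. The last panel leaves out other members in each group, so its order of groups cannot be read as a difference.

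Few members had enough reads to be tested one by one. A member had a median of 11 counts over the 8 libraries, 18 had 100 or more, and the highest had 888. In edgeR's quasi-likelihood fit over 12440 transcripts, 128 members at 115 loci were tested, 1.58% of those listed. A member that passed this filter through its high group alone had to differ, so the counts below describe the tested members and support nothing about the rest. Against hPSC, 58 were higher and 31 lower in ectoderm, where 23.8% of all tested transcripts were higher and 22.1% lower (edgeR, adjusted p under 0.05). In endoderm 9 were higher and 28 lower, against 13.1% and 13.6% of all transcripts, and in mesoderm 26 were higher and 28 lower, against 16.5% and 16.3%. DESeq2 called fewer in ectoderm (11 higher, 25 lower), endoderm (5 and 17) and mesoderm (8 and 24), and so turned the ectoderm count towards lower calls. Without the ectoderm library of repeat 2 the 58 higher calls in ectoderm became 36, and without mesoderm repeat 1 or 2 the 26 higher calls there became 14 or 13.

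Direction went with strand. Of 90 tested host-strand members, 52 were higher and 4 lower in ectoderm, 2 higher and 5 lower in endoderm, and 26 higher and 3 lower in mesoderm, with median log2 fold changes of 1.82, -0.35 and 1.42. Of 31 tested opposite-strand members at 21 loci, 5 were higher and 23 lower in ectoderm, 5 higher and 20 lower in endoderm, and 0 higher (also 0 at an unadjusted p under 0.05) and 21 lower in mesoderm by edgeR. DESeq2 called 2 higher and 19 lower, 3 and 15, and 0 and 19 of these, but only 9, 1 and 8 host-strand members as higher, in the same order of layers. The median log2 fold changes on the opposite strand were -5.22, -3.74 and -7.21, beside 0.01, -0.17 and 0.04 over all transcripts tested. The 3 comparisons share the hPSC libraries. Transcripts at 1 locus share reads and are not independent.

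**Figure D4:**
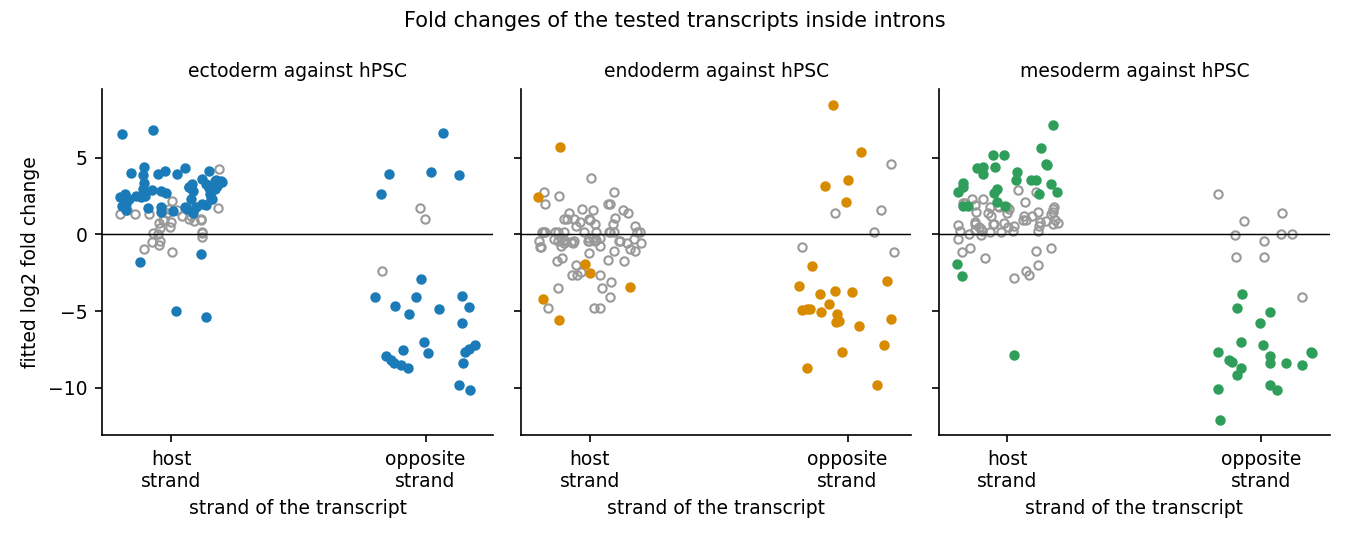
Fitted log2 fold change against hPSC of the 90 host-strand and 31 opposite-strand members tested, in each layer. Points are transcripts, filled where edgeR's adjusted p is under 0.05, spread sideways for sight; the opposite-strand members lie mostly below 0 and the host-strand members mostly above 0 for ectoderm and mesoderm.

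Of the 10 members with the highest mean level, 5 were opposite-strand transcripts that were highest in hPSC, and these included the first 3. The first was a 1-exon transcript of 5477 nt inside HDAC2-AS2, a noncoding gene named for its antisense position to the histone deacetylase gene HDAC2 (chr6:114422475-114427951, minus strand, intron 4). It had 318 and 502 counts for hPSC, 5 and 5 for ectoderm, 33 and 25 for endoderm and 0 for both mesoderm libraries. Every hPSC library lay above every layer library. It fell by 7.53 ± 0.47 (SE) on the log2 scale in ectoderm (edgeR adjusted p = 1.43e-07) and by 3.67 ± 0.37 in endoderm (adjusted p = 8.85e-06). In mesoderm it was at least 262-fold lower, taking 3 counts over the group as the floor. No count of a spliced reference-matching transcript of HDAC2-AS2 was found in any library.

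SEMA3E encodes a secreted semaphorin that guides vessels and axons. A 5334 nt transcript on its opposite strand (chr7:83460014-83465347, intron 4) had 177 and 213 counts for hPSC, 20 and 16 for ectoderm, 11 and 13 for endoderm, and 1 and 0 for mesoderm. Spliced SEMA3E itself had 1 and 1 counts for hPSC, 22 and 14 for ectoderm, 8 and 7 for endoderm and 0 for mesoderm. In hPSC the intronic transcript was thus high with the host near 0, in ectoderm the counts of both were alike, and in mesoderm both were at or near 0. The intronic transcript fell by 4.65 ± 0.38 on the log2 scale in ectoderm (edgeR adjusted p = 5.07e-07) and by 3.86 ± 0.38 in endoderm (adjusted p = 4.99e-06). Against its host's own change the difference was -7.47 ± 0.82 in ectoderm (edgeR adjusted p = 1.02e-15) and -6.81 ± 0.98 in endoderm (adjusted p = 1.65e-09), and in mesoderm, with next to no counts, it was -4.87 ± 51.7 (adjusted p = 1).

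Inside GUCY2C-AS1, an antisense gene of the intestinal guanylate cyclase receptor, a 12121 nt opposite-strand transcript (chr12:14698187-14710307, intron 3) had 100 and 120 counts for hPSC, 3 in an endoderm library and 0 in the other 5 layer libraries. It was at least 146-fold lower in ectoderm (edgeR adjusted p = 9.39e-07) and at least 70.2-fold lower in mesoderm (adjusted p = 3.47e-06). DESeq2 gave adjusted p-values of 0.0901 and 0.166 for the same differences. A spliced transcript over the same span had 28 and 50 counts for hPSC and 0 elsewhere. In the noncoding gene ENSG00000262801, an opposite-strand transcript of 5388 nt (chr16:13352293-13357680) had 73 and 96 counts for hPSC and 0 in every layer library, at least 112-fold lower in ectoderm, 61.0-fold in endoderm and 53.9-fold in mesoderm. HMCN1 encodes hemicentin, an extracellular matrix protein. Its opposite-strand 2-exon member (chr1:185948292-185953867) had 49 and 69 counts for hPSC, 6 and 3 for ectoderm, 1 and 2 for endoderm, and 1 and 1 for mesoderm, with edgeR adjusted p from 2.11e-06 to 1.77e-05. Of the same kind were members in LINC01194 (33 and 36 for hPSC, 1 in an endoderm library, 0 elsewhere) and in ENSG00000228714 (19 and 20 for hPSC, 0 elsewhere). A 2-exon member in ENSG00000290316, whose host strand was not known, had 55 and 71 counts for hPSC, 0 and 1 for ectoderm, 11 and 9 for endoderm and 0 for mesoderm. The members in GUCY2C-AS1, ENSG00000262801, LINC01194, ENSG00000228714 and ENSG00000290316 were held by the hPSC assembly alone. Their lower levels in the layers are therefore not independent of how they were found.

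**Figure D5:**
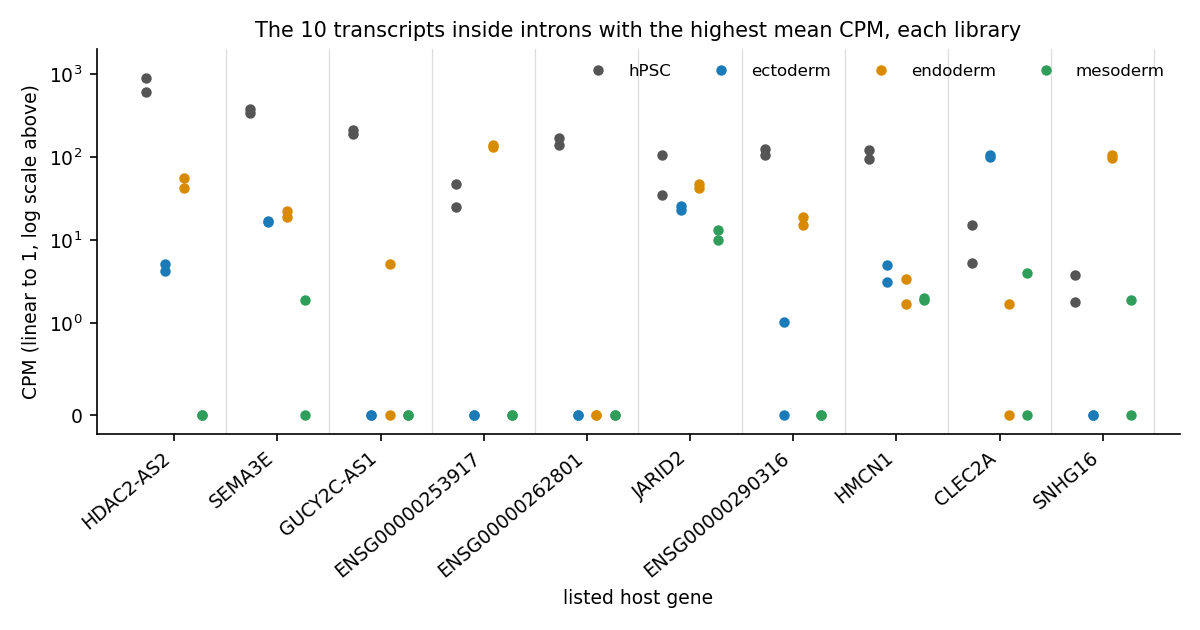
CPM of the 10 intronic transcripts with the highest mean level, in each of the 8 libraries, named by host gene, on an axis that is linear up to 1 and logarithmic above. HDAC2-AS2 reaches 612 and 893 CPM for hPSC, and the members in CLEC2A and SNHG16 are high in ectoderm and in endoderm.

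Among abundant host-strand members was the JARID2 transcript that fills intron 16. It had 18 and 60 counts for hPSC, 27 and 25 for ectoderm, 28 and 25 for endoderm, and 7 and 5 for mesoderm, while spliced JARID2 had 65 and 47, 27 and 37, 24 and 37, and 3 and 2. Scaled by depth, the intron 16 member had 34.7 and 107 CPM for hPSC, 22.9 and 25.8 for ectoderm, 47.8 and 42.6 for endoderm, and 13.2 and 9.92 for mesoderm. The hPSC libraries differed by more than some groups did. Mesoderm lay below all others, and ectoderm lay below hPSC and endoderm. The member fell by 2.74 ± 0.58 on the log2 scale in mesoderm (edgeR adjusted p = 0.00195). The fall of 1.81 ± 0.47 in ectoderm (adjusted p = 0.00577) gave adjusted p = 0.278 without hPSC repeat 2. Against the host no difference passed in any layer (0.33 ± 0.53, 0.43 ± 0.53 and 1.85 ± 0.88). A second JARID2 member, of 19202 nt in intron 1 (chr6:15279500-15298701), had 14 and 12 counts for hPSC, 13 and 12 for ectoderm, 1 and 3 for endoderm, and 6 and 1 for mesoderm.

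Members that rose in ectoderm were found on both strands. CLEC2A, described here for its abundance and not for the size of its rise, encodes a C-type lectin of keratinocytes, and the member on its strand (chr12:9902234-9911029, 8796 nt) had 8 and 3 counts for hPSC, 118 and 103 for ectoderm, 1 and 0 for endoderm, and 0 and 2 for mesoderm. It rose by 3.09 ± 0.51 on the log2 scale (edgeR adjusted p = 2.55e-04), and both ectoderm libraries lay above all others. No count of a spliced reference-matching transcript of CLEC2A was found in any library. The next 3 had the largest fitted rises among members at 10 CPM or more in each ectoderm library. The members in GREB1L and ENSG00000225689 were held by the ectoderm assembly alone, so their rises are not independent of how they were found. GREB1L, which is needed for kidney development, held a 22284 nt host-strand member (chr18:21277014-21299297) with 0 counts for hPSC, 25 and 25 for ectoderm, 0 and 1 for endoderm, and 5 and 2 for mesoderm. That was at least 8.39-fold higher in ectoderm (edgeR adjusted p = 6.09e-04), and spliced GREB1L had a like pattern, with 0 counts for hPSC, 175 and 148 for ectoderm, 0 for endoderm, and 9 and 13 for mesoderm. In CDK8, the kinase of the Mediator complex, a host-strand member (chr13:26369665-26374044) had 0 counts for hPSC, 23 and 18 for ectoderm, 1 and 1 for endoderm, and 3 and 4 for mesoderm, at least 6.88-fold higher in ectoderm (edgeR adjusted p = 5.89e-04). An opposite-strand member in ENSG00000225689 (chrX:129091235-129102299) had 26 and 18 counts for ectoderm, 0 for hPSC and at most 4 elsewhere.

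Some opposite-strand members were highest in endoderm. Of the members given here, all but that in ENSG00000253917 were held by the endoderm assembly alone. The rises of those members are therefore not independent of how they were found. SNHG16, a host gene of small nucleolar RNAs, held a 5166 nt transcript on the opposite strand (chr17:76606024-76611189) with 2 and 1 counts for hPSC, 0 for ectoderm, 58 and 62 for endoderm, and 1 and 0 for mesoderm. Spliced SNHG16 was present everywhere, at 256 and 371, 269 and 170, 217 and 208, and 90 and 92 counts. The member was 36.9-fold higher in endoderm than in hPSC by depth-scaled counts (95% counting interval 12.3 to 182, edgeR adjusted p = 1.48e-05), and it differed from its host's change by 5.78 ± 0.88 on the log2 scale (adjusted p = 6.86e-09). In the noncoding gene ENSG00000253917 a 2-exon member (chr4:3927751-3934321) had 13 and 27 counts for hPSC, 82 and 78 for endoderm and 0 for ectoderm and mesoderm. It rose by 2.15 ± 0.41 in endoderm (edgeR adjusted p = 0.00166) and was at least 26.5-fold lower in ectoderm and 12.8-fold lower in mesoderm. An opposite-strand member in ENSG00000224371 had 25 and 35 counts for endoderm, 1 in an ectoderm library and 0 elsewhere. A member in ENSG00000286110, whose strand relation to the host was not known, had 39 and 33 counts for endoderm and 0 elsewhere. On the host strand, PLXNA2, a plexin that receives semaphorin signals, held a member in intron 1 (chr1:208220600-208229543) with 31 and 25 counts for endoderm and at most 1 in any other library. Spliced PLXNA2 had 134 and 152 counts for endoderm and at most 14 elsewhere.

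In mesoderm the leading members lay on the host's strand. Those given here were all held by the mesoderm assembly alone, so their rises are not independent of how they were found. SLIT3, a secreted ligand of ROBO receptors, held a 35900 nt transcript in intron 4 (chr5:169141055-169176954) with 1 and 0 counts for hPSC, 3 and 3 for ectoderm, 3 and 1 for endoderm, and 21 and 40 for mesoderm. It rose by 5.66 ± 0.84 on the log2 scale (edgeR adjusted p = 1.14e-04), a ratio of 63.7 with a counting interval of 11 to 2558. Spliced SLIT3 had 8 and 3 counts for mesoderm and 0 elsewhere. In CCBE1, which acts in lymphatic vessel growth, the member (chr18:59613864-59632322, 18459 nt) had 14 and 15 counts for mesoderm, 5 and 7 for ectoderm and at most 1 elsewhere, and rose by 4.58 ± 0.87 (edgeR adjusted p = 8.90e-04). Its spliced host had 151 and 129 counts for mesoderm and at most 15 elsewhere. KIF26B, an atypical kinesin, held a 12327 nt member (chr1:245254302-245266628) with 16 and 12 counts for mesoderm, 6 and 2 for ectoderm, 1 and 0 for endoderm and 0 for hPSC, at least 9.75-fold higher than hPSC in mesoderm (edgeR adjusted p = 5.06e-04).

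Intronic and spliced counts of the same host were compared directly in 80 pairs at 70 hosts, with the library as a block. Of these, 4 (5% of pairs) changed differently from their host in ectoderm, 7 (8.75%) in endoderm and 1 (1.25%) in mesoderm (edgeR, adjusted p under 0.05). Those of ectoderm were 3 transcripts opposite to SEMA3E and 1 in RASGRF2. In simulated pairs with a 4-fold difference the test found 25% for ectoderm, 15% for endoderm and 10% for mesoderm, so most differences of that size would be missed. RASGRF2 encodes an exchange factor for RAS and RAC. Its host-strand member (chr5:81051291-81062024) had 3 and 0 counts for hPSC, 12 and 11 for ectoderm, 1 and 1 for endoderm, and 10 and 11 for mesoderm. Spliced RASGRF2 had 10 and 3 counts for hPSC, 0 for ectoderm and endoderm, and 12 and 10 for mesoderm. In ectoderm the intronic transcript was thus counted without a spliced reference-matching transcript of its host (difference 7.78 ± 1.87, edgeR adjusted p = 8.00e-04). The member's own rise in ectoderm did not pass (1.66 ± 0.80, edgeR adjusted p = 0.0992). The size of the difference depends on the fit at 0 host counts. The single pair in mesoderm was in GPR176, an orphan receptor, whose member had 20 and 4 counts for hPSC, 28 and 31 for ectoderm, 0 and 1 for endoderm, and 4 and 2 for mesoderm. Spliced GPR176 went from 187 and 83 counts for hPSC to 1 and 1 for mesoderm, a difference of 5.06 ± 1.26 (edgeR adjusted p = 0.00618). The GPR176 call was lost without either mesoderm library, and 3 pairs passed without hPSC repeat 2. In ectoderm 7 passed without hPSC repeat 2, and in endoderm 4 without hPSC repeat 1 or without endoderm repeat 1.

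Summing the members of a host by strand, a step chosen after seeing the data, gave 480 host-strand sums enough counts. There, 23.8%, 12.9% and 16.3% of all rows were higher in ectoderm, endoderm and mesoderm, and 22.5%, 13% and 16.4% lower. Of the host-strand sums, 226 were higher and 10 lower in ectoderm, 11 higher and 25 lower in endoderm, and 113 higher and 16 lower in mesoderm, with median log2 fold changes of 1.28, -0.38 and 0.92. Of 29 opposite-strand sums, 5 were higher and 17 lower in ectoderm, 6 higher and 15 lower in endoderm, and 1 higher and 16 lower in mesoderm. The part of the ectoderm assembly in these sums was not tested.

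Next to their hosts, 388 sums could be compared. In ectoderm 17 (4.38%) rose above and 6 (1.55%) fell below the host's change, in endoderm 3 (0.773%) and 1 (0.258%), and in mesoderm 10 (2.58%) and 5 (1.29%), by edgeR. FBXL7, an F-box protein of ubiquitin ligases, had 5 and 10 host-strand intronic counts for hPSC, 99 and 93 for ectoderm, 7 and 9 for endoderm, and 14 and 17 for mesoderm. Its spliced transcripts had 13 and 9, 10 and 11, 3 and 2, and 2 and 3 counts. The ectoderm libraries were deeper, so like raw spliced counts mean a lower spliced level there than in hPSC. The FBXL7 intronic sum rose by 2.40 ± 0.43 in ectoderm. Its difference from the host, which also holds the host's fall, was 3.71 ± 0.66 (edgeR adjusted p = 3.80e-05). SMYD3, a lysine methyltransferase, was alike, with 7 and 4 intronic counts for hPSC and 61 and 45 for ectoderm beside 25 and 28 and then 35 and 25 spliced counts. Its intronic sum rose by 1.98 ± 0.47, and the difference from the host was 3.07 ± 0.57 (edgeR adjusted p = 4.56e-05). CTSV, a lysosomal cysteine protease, went the other way in mesoderm. Its spliced counts were 91 and 140 for hPSC and 724 and 647 for mesoderm, while its intronic counts were 6 and 4 and then 1 and 0 (difference -5.68 ± 1.19, edgeR adjusted p = 0.00254). INVS encodes inversin, a protein of primary cilia. Its opposite-strand members had 19 and 13 counts for hPSC and 7 and 5 for ectoderm, where spliced INVS had 2 and 4 and then 25 and 24 (difference -4.37 ± 0.79, adjusted p = 4.01e-05).

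Members were spread unevenly over hosts. Of the listed members, 1541 (19.0%) had a host with 0 spliced counts over all libraries. Of the hosts, 1674 held 1 member, 117 held 10 or more, and those with many members included PTPRG (43), RERE and TENM3 (31 each) and CUX1 (29). PTPRG, a receptor tyrosine phosphatase, had 102 and 56 intronic counts for hPSC, 261 and 205 for ectoderm, 28 and 32 for endoderm, and 39 and 43 for mesoderm. Its spliced transcripts had at most 7 counts in any library. The PTPRG sum fell by 1.21 ± 0.35 in endoderm (edgeR adjusted p = 0.0192) and by 1.00 ± 0.34 in mesoderm (adjusted p = 0.0342). RERE, a nuclear corepressor, fell by 1.00 ± 0.35 in endoderm (edgeR adjusted p = 0.0443). CUX1, a homeobox transcription factor, had log2 differences of -0.02 ± 0.32, -0.16 ± 0.33 and 0.13 ± 0.33 and passed in no layer. In CUX1 the summed spliced counts (108, 225, 113 and 124 from hPSC to mesoderm) were close to the intronic ones (120, 285, 96 and 139).

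Host genes were also grouped by 5 lists. The neural list held 27 adhesion and axon genes with long introns, of which 21 had members, 192 in all and 186 on the host's strand. None of the 192 had enough counts to be tested singly. Their summed level was 146 and 165 CPM for hPSC, 627 and 652 for ectoderm, 138 and 167 for endoderm, and 356 and 423 for mesoderm, so ectoderm and then mesoderm stood above the overlapping hPSC and endoderm. The assembly of ectoderm alone held 142 of the 192. Without members held only by the group's own assembly, the mean level in ectoderm was 91.0 CPM, against 640 with them. In the same setting the means were 146 CPM for hPSC, 133 for endoderm and 267 for mesoderm. Each group is then measured over other members, so the order of the groups cannot be read from it. Of 11 hosts with a testable sum, 8 rose and 0 fell in ectoderm, 1 rose in endoderm and 4 rose in mesoderm by edgeR, with median log2 fold changes of 1.81, -0.23 and 1.19. Over all 480 host-strand sums 226 rose in ectoderm, 11 in endoderm and 113 in mesoderm, with medians of 1.28, -0.38 and 0.92, and over all rows 23.8%, 12.9% and 16.3% were higher, so rises in ectoderm were frequent among host-strand sums at large.

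ROBO1, an axon guidance receptor, had 4 and 10 intronic counts for hPSC, 108 and 106 for ectoderm, 6 and 2 for endoderm, and 19 and 15 for mesoderm (ectoderm 2.66 ± 0.47, edgeR adjusted p = 4.08e-04). Spliced ROBO1 had a like pattern, at 7 and 3, 119 and 117, 4 and 3, and 12 and 10 counts. PTPRD, a synaptic receptor phosphatase, had 1 and 4 intronic counts for hPSC and 62 and 47 for ectoderm (3.13 ± 0.59, edgeR adjusted p = 6.44e-04). No count of a spliced reference-matching transcript of PTPRD was found in any library. GPC6, a glypican, had 7 and 8 counts for hPSC, 113 and 87 for ectoderm, 19 and 34 for endoderm, and 12 and 14 for mesoderm, and was the gene that also rose in endoderm (1.99 ± 0.46, adjusted p = 0.00519). TENM3 and AUTS2, a teneurin and a neurodevelopmental regulator, rose in ectoderm and in mesoderm, with the larger fitted value in mesoderm, a difference that was not tested (TENM3 1.81 ± 0.39 and 2.41 ± 0.40, AUTS2 1.36 ± 0.42 and 2.17 ± 0.42).

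The chromatin and RNA-binding list held 24 genes, 14 of them with 68 members. The 2 members tested were both in JARID2, and both were lower in ectoderm and mesoderm, as was the intron 1 member in endoderm. The calls of the intron 1 member were each lost without 1 library, with edgeR adjusted p = 0.224 for ectoderm, 0.153 for endoderm and 0.238 for mesoderm. Of 4 summed hosts, JARID2 fell in ectoderm (-1.52) and mesoderm (-2.14), and ASH1L, a histone methyltransferase, rose in both (2.10 ± 0.58, edgeR adjusted p = 0.00795, and 2.45 ± 0.60, adjusted p = 0.00551). ARID1B and MSI2 passed in no layer. The pathway list of TGF-beta, WNT, FGF and BMP held 20 genes, 12 with 50 members. Its 1 tested member and its 3 summed hosts, TCF7L2, TCF7L1 and BMPR1A, gave 0 calls by edgeR in any layer, and 2 of the sums were lower in endoderm at an unadjusted p under 0.05. Of these TCF7L1, a WNT-pathway repressor, had -1.14 ± 0.44 (adjusted p = 0.0664). Of 16 genes known for transcripts that end in an intron, CDK12, CDK13, DICER1, EGFR and MLLT10 held 1 member each. Of 10 host genes of small RNAs, SNHG14 held 3 and RMST 1, all found by the ectoderm assembly alone. Neither list had a member with enough counts to be tested.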

How the data were processed

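The authors deposited a combined assembly of transcripts and a table of counts per transcript in 8 libraries. Per the submitters' processing notes, minimap2 and StringTie were used with GRCh38 (hg38). The method of counting and its use of strand are not given in the sources used here. All 8 columns of the deposited table hold whole counts, and nothing in it says whether they are raw or estimated counts. Of 27176 spliced reference-matching transcripts found in GENCODE 29, 96.5% had the same introns there, so its coordinates were used. The host's strand came from the assembly for 7642 members and from GENCODE 29 for 403.

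Members were joined to the counts by transcript identifier. Host counts are the spliced reference-matching transcripts of the same gene. Each measure per library was compared by F over every partition of the 8 libraries into 4 pairs, an exact permutation test that is 2-sided by construction, with Benjamini-Hochberg adjustment over 9 measures. The transcript test was that of edgeR 4.0.16, run in R 4.3.3 (TMM, filterByExpr with a minimum count of 10, quasi-likelihood test, Benjamini-Hochberg over all 12440 transcripts, threshold 0.05), with DESeq2 1.42.0 as an alternative. Pairs of an intronic transcript and its host with at least 10 counts were tested for the interaction of kind and layer. Lower limits of a fold against a group at 0 use 3 counts over the group, and intervals of ratios are at 95% and cover counting error only. On simulated counts with 4-fold changes the transcript test recovered 76.5% in ectoderm, 57.5% in endoderm and 66.5% in mesoderm of 200 changed among 12440 transcripts.

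Members were named by their mean CPM (10 highest), by the 3 largest and 3 smallest fold changes per layer among those called whose higher group reached 10 CPM in each library, by the 2 pairs with the smallest p per layer, by the 5 hosts with most members, and by the host lists. Some items that these rules name are not reported here. Members and lists were chosen with earlier results of these data known. Short-read libraries that the labels describe were not analysed here.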

Additional observations from a re-analysis of the deposited data

Results flagged for a closer look

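The share of counts in intronic transcripts moved in opposite directions in the layers: both ectoderm libraries lay above both hPSC libraries and both endoderm libraries below, a gap of 1.88 percentage points between the ectoderm and endoderm means. Mesoderm exceeded endoderm by 1.12 points in the same way. For the host strand alone the gaps were 1.89 points between ectoderm and endoderm and 1.20 between mesoderm and endoderm. These differences between layers were not tested on their own.

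Single members also moved in opposite directions, and here edgeR tested the difference. The member in ENSG00000253917 was higher in endoderm than in hPSC and lower in ectoderm and mesoderm. Its fitted log2 difference was -9.88 for ectoderm minus endoderm (edgeR adjusted p = 4.40e-07) and 9.88 for endoderm minus mesoderm (adjusted p = 3.52e-06). The member in SNHG16, held by the endoderm assembly alone, gave -9.46 for ectoderm minus endoderm (edgeR adjusted p = 2.75e-07). Since these members had 0 counts in ectoderm or mesoderm, the fitted sizes depend on the prior count and are no bound.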

How the results depend on the processing

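The direction of ectoderm against hPSC turned in some settings. It was kept over members of at least 2 assemblies for the host strand (0.0668 percentage points) and for members detected at equal depth (31.5 members). In percentage points, the share over all members was 1.32 higher in ectoderm as reported, -0.0657 with members of at least 2 assemblies, -0.0512 with spliced members only, and -0.391 without the own assembly's members. For 1-exon members the difference was -0.0514 and -0.337 under the assembly settings. Without the own assembly it was -0.197 for the host strand and -1203.5 for members detected at equal depth. Intronic counts per 100 host counts gave -5.41 with at least 2 assemblies and -3.40 without the own assembly. Leaving out the own assembly removes 4752 listed members from ectoderm and 747 from hPSC, so each group is then measured over other members. The turns in that setting cannot be read as a difference between groups. The setting of at least 2 assemblies takes the same members in every library, and the share and the counts per 100 host counts turned there too.

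Members called in ectoderm, endoderm and mesoderm numbered 89, 37 and 54 as reported, 36, 22 and 32 by DESeq2, 419, 81 and 115 with no filter on low counts, and 261, 59 and 148 as sums per host and strand. Leaving out 1 library gave 63 to 82, 30 to 39 and 40 to 55. Pairs that differed from their host numbered 4, 7 and 1 as reported, 19, 13 and 8 with all reference-related transcripts as host counts, 0 and 2 (ectoderm and endoderm) by edgeR for hosts with at least 100 counts, and 23, 4 and 15 as sums. Leaving out 1 library gave 3 to 7, 4 to 7 and 0 to 3.

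Same-numbered libraries had deviations from their group means correlated at -0.0464 to 0.158. Whether repeat numbers pair the libraries cannot be read from these values, since counting noise draws such correlations towards 0. With the replicate block 80, 36 and 51 members were called, and 4, 6 and 1 pairs. Of 53 calls of named members, 16 were lost with DESeq2, 2 with the block and 10 in at least 1 fit without a library, and 0 reversed in those fits. The planned measure of A-rich sequence after 3′ ends was not run, because no genome was used here. Depth limits the single tests to 1.58% of listed members.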

Other observations

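A few opposite-strand groups of transcripts went against the fall of that strand and were higher in ectoderm. They were picked after their values were seen. Inside TBC1D5, a regulator of endosome trafficking, 19 members on the opposite strand had 11 and 10 summed counts for hPSC, 159 and 165 for ectoderm, 14 and 8 for endoderm, and 16 and 23 for mesoderm. The sum rose by 2.69 ± 0.39 on the log2 scale in ectoderm (edgeR adjusted p = 1.02e-04). Spliced TBC1D5 had at most 10 counts in any library. In WDPCP, a planar polarity effector, 12 opposite-strand members had 5 and 6 counts for hPSC, 76 and 87 for ectoderm, 2 and 11 for endoderm, and 28 and 23 for mesoderm, and rose in ectoderm (2.62 ± 0.53, edgeR adjusted p = 0.00111) and mesoderm (2.12 ± 0.57, adjusted p = 0.00999). In the noncoding gene ENSG00000229618, 14 members had 11 and 5 counts for hPSC and 164 and 167 for ectoderm (3.11 ± 0.42, edgeR adjusted p = 5.22e-05). All members in TBC1D5 and ENSG00000229618 were held by the ectoderm assembly alone, and the part of that in these values was not tested.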
